A study of Homo sapiens with 4 samples.

Results

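The heat-shock proteins and DNAJ co-chaperones were followed as 75 protein-coding genes, out of 58735 genes in the count table, of which 19951 are protein coding. A gene was taken when its symbol began with DNAJA, DNAJB, DNAJC, HSPA or HSPB and a number, or with HSP90, or was HSPD1, HSPE1 or HSPH1. By family these were 45 J proteins, 13 Hsp70 genes, 9 small heat-shock protein genes, 3 Hsp110 genes (HSPA4, HSPA4L and HSPH1), 3 Hsp90 genes and the 2 mitochondrial chaperonin genes. By the place where the protein works, from general knowledge, 47 were assigned to the cytosol or nucleus, 14 to the endoplasmic reticulum (ER), 9 to mitochondria and 5 to none of these.

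Molecular chaperones bind unfolded or partly folded proteins and let them fold, move across membranes or be degraded. Hsp70 proteins do this in cycles of ATP hydrolysis that J proteins start by delivering the client, while nucleotide exchange factors, Hsp110 among them, end the cycle. Hsp90 takes over late folding steps of kinases and receptors. The ER and the mitochondrial matrix each hold their own Hsp70 (HSPA5, also called BiP, and HSPA9, also called mortalin), and mitochondria also hold the barrel-shaped chaperonin HSPD1 with its lid HSPE1. Cytosolic chaperone genes are induced through heat-shock factor 1 (HSF1), and those of the ER through the unfolded-protein response.

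The cells were MDA-MB-231, a long-established line from a human triple-negative breast cancer, transduced with a doxycycline-inducible (TetOn) H2BeGFP reporter, a fluorescent histone. Per the labels' protocols, all 4 samples came from cells given doxycycline at 5 μg/ml for 3 days, stained with the dyes Claret and Violet, and then kept for a chase of 12 days in which dividing cells dilute each label. The top 1% of cells for Claret, for eGFP or for Violet were sorted as 3 slow-cycling populations (called Claret, eGFP and Violet here), and the Bulk sample was sorted without any gate on fluorescence. Where 3 values follow one for Bulk, or 3 ratios to Bulk are given, they stand in the order Claret, eGFP, Violet, and 4 values in a run begin with Bulk. Each group is 1 library, so no difference below has a replicate check, and a change of state within cells and a change in the mix of cells cannot be told apart in bulk RNA, nor can fewer cells of a kind and less RNA per cell. Libraries are named by their titles, and in every sample the treatment field names another sort: the library titled Bulk is called Claret there, the one titled Claret is called eGFP, the one with H2B-eGFP in its title is called Violet, and that titled Violet is called un-gated. With that field most directions below against "Bulk" turn or shrink to near 0, as the closing section gives.

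Summed counts ranged from 15508179 to 16976909 per library. As markers of the line, PGR was at 0 reads throughout, and a 0 leaves room for 3 reads, or 0.177 to 0.191 CPM (read counts scaled to a common library size). CDH1 had 0 to 3 reads, ESR1 3 to 7 and EPCAM 28 to 61, while VIM ranged from 156 to 211 FPKM (a level per gene length and library size), AXL from 119 to 148 and ERBB2 from 8.54 to 9.06. MKI67, a marker of cycling cells, had 6778 reads in Bulk against 995, 689 and 915, and TOP2A had 14220, 3399, 2487 and 3330 in the order Bulk, Claret, eGFP, Violet. Both were highest in the library titled Bulk, which the treatment field calls a Claret sort, while the library that field calls un-gated was near the other two. Both cycling markers therefore moved with every comparison against Bulk given below, and their part in the chaperone results was not tested.

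Regulatory sequence upstream of the members was searched for the elements that heat-shock factors and the ER stress response recognise. In windows of 300 bases around the RefSeq start sites (250 before and 50 after, GRCh38.p14; 66 of 75 members matched), the heat-shock element of 3 units, GAANNTTCNNGAA on either strand, was found for 4 members (6.06%), HSPA8, DNAJB6, DNAJA1 and HSPA6, against 0.49% of 35116 promoters. The shorter heat-shock pair, GAANNTTC or TTCNNGAA, lies within that longer element and was found for 14 members (21.2%), against 13.5% of all promoters. The ER stress element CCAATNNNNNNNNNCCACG, on either strand, was found for 2 members (3.03%), HSPA5 and HSP90B1, against 0.0769% of all promoters. TGATGNAA, the motif of ATF4-type factors, was found for 1 member, HSPA4L (1.52%), against 3.62% of all promoters. A match describes letters in these windows and shows no binding. Shown are the 250 bases before the start site, 5′ to 3′ on the gene's strand with the heat-shock or ER stress elements in capitals, for 4 members chosen after the search because they carry an element there and have over 1000 reads in each library. The windows of HSPA8, HSP90B1 and DNAJB6 lie within the longest gene span of the deposited table, which begins further upstream than the RefSeq start site.
HSPA8 (chr11:123062137-123062386, minus strand, GRCh38): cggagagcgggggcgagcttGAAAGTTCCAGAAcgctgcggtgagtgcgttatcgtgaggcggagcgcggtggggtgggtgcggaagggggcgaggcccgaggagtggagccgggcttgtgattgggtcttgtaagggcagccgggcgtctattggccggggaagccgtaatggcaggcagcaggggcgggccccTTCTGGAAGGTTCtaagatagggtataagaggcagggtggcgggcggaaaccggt
DNAJB6 (chr7:157336754-157337003, plus strand): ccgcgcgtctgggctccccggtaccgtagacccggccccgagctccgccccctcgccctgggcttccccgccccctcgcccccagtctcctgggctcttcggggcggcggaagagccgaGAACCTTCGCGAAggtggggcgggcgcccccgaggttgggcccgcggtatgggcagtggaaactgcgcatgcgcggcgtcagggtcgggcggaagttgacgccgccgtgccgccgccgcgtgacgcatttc
HSPA5 (chr9:125241344-125241593, minus strand): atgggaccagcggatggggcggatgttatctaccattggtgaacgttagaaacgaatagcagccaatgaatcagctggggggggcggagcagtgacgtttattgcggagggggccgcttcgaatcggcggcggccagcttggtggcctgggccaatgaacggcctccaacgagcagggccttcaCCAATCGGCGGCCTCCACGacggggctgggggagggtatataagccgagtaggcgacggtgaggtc
HSP90B1 (chr12:103930160-103930409, plus strand): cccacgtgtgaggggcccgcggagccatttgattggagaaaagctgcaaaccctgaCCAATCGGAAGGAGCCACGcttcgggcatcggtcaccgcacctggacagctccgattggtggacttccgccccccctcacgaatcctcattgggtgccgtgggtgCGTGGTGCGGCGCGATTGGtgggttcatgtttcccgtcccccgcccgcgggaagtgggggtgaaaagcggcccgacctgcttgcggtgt
HSPA8 and DNAJB6, which both carry the heat-shock element upstream, are cytosolic and had different values in the comparisons below, HSPA8 being lower in all 3 slow-cycling libraries and DNAJB6 close to Bulk. DNAJA1, with the element after the start site, was also lower in all 3, and the intervals of HSPA6 included no difference. No heat-shock element of 3 units was found in the windows of HSP90AA1, HSPH1 or DNAJB1. Only a single window per gene was searched, so this does not show that these genes lack the element. The window of HSP90AA1 lies at the far upstream end of its long gene span (102080738 to 102139699). Any start site further inside that span was not searched. HSPA5 and HSP90B1, which carry the ER stress element (in HSP90B1 at 2 places), were both higher in all 3.

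Of the 75 members, 61 had a mean of at least 1 CPM over the libraries and entered the ratios to Bulk. The slow-cycling libraries held less chaperone RNA than Bulk, the cytosolic and mitochondrial members were mostly lower and the ER members mostly higher. Members took 1.26% of all reads in Bulk against 0.933%, 0.929% and 0.887%. At least 2-fold lower than Bulk were 6, 7 and 9 members, where 6.72%, 7.64% and 6.92% of the 14585 genes tested were. At least 2-fold higher were 3, 4 and 2 members, where 11.3%, 12.0% and 11.7% of all genes tested were. They include DNAJC12 and, in Claret and eGFP, HSPA12B, which passed the filter only through libraries where they are high. With a mark of 1.5-fold, 21, 19 and 17 members were lower, against 17.4%, 18.6% and 17.2% of all genes, and 5, 8 and 6 were higher, against 21.4%, 22.0% and 22.4%. The median log2 ratio over the members tested was -0.25, -0.20 and -0.32, and over all genes tested it was -0.01, -0.01 and 0.01. Without 13 members that share sequence or exons with other genes, named further on, the median was -0.02, -0.05 and -0.20, which in Claret is about that of all genes. The 3 comparisons share the Bulk library, so like values in them are not independent of one another.

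By compartment, the median log2 ratio of the 35 cytosolic or nuclear members tested was -0.40, -0.32 and -0.34. The 14 ER members had medians of 0.20, 0.32 and 0.23 in the same order, with 10 of 14 above 0 in each library. For the 9 mitochondrial members the medians were -0.27, -0.26 and -0.35, with 7, 8 and 8 of 9 below 0. Of all 14585 genes tested, 7230, 7191 and 7395 lay above 0 and 7355, 7394 and 7190 below. No test compares the compartments, because there is 1 library per group and genes are not replicates.

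**Figure D1:**
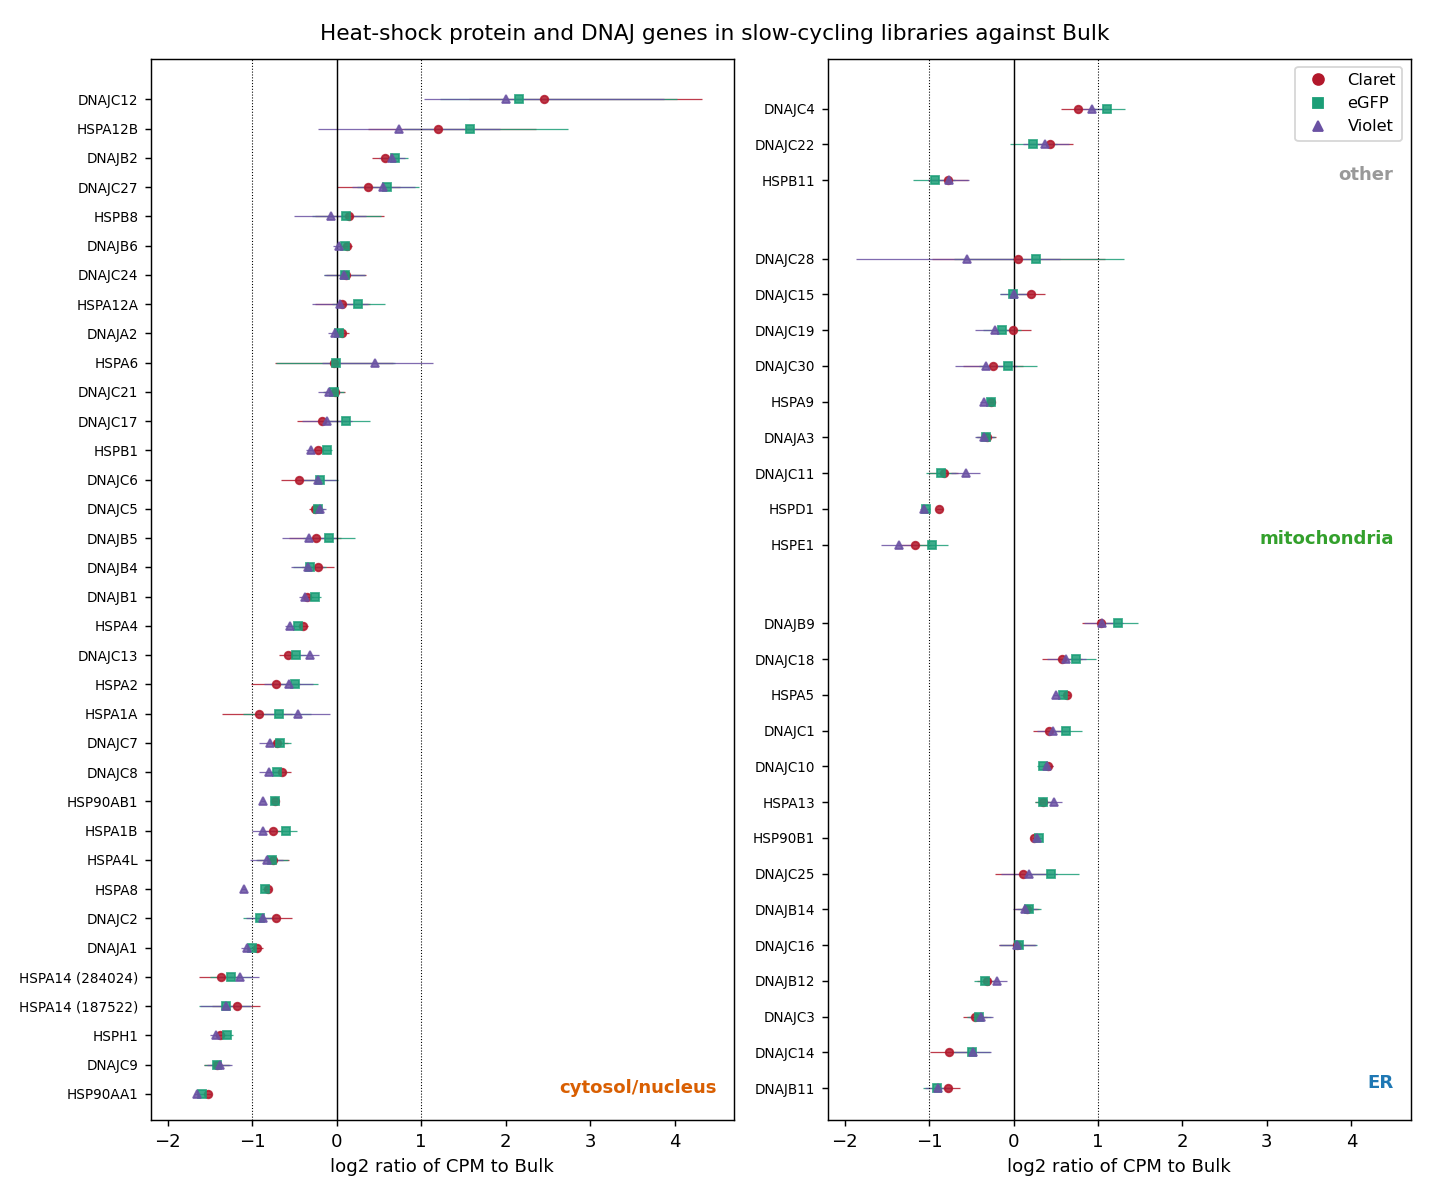
Log2 ratio of CPM to Bulk (x axis) for each of the 61 members tested (y axis), in Claret (circles), eGFP (squares) and Violet (triangles), grouped by compartment; bars are 95% intervals for counting error and dotted lines mark 2-fold. HSP90AA1, DNAJC9 and HSPH1 lie left of the 2-fold line in all 3 libraries, and 10 of 14 ER members lie right of 0.

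Hsp90 genes differed by compartment. HSP90AA1 (ENSG00000080824, chromosome 14, 102080738 to 102139699), the stress-inducible cytosolic Hsp90, had 29299 reads in Bulk against 10973, 9803 and 9308. All 3 slow-cycling libraries lay well below Bulk and near each other. That is 2.88-fold lower in Claret (log2 ratio -1.52, 95% interval -1.56 to -1.49), 3.01-fold lower in eGFP (-1.59, -1.63 to -1.56) and 3.14-fold lower in Violet (-1.65, -1.69 to -1.62). These intervals, like all below, are exact intervals of the ratio of reads and cover counting error only. HSP90AB1 (chromosome 6, 44246166 to 44253888), the constitutive cytosolic Hsp90, had 35030, 22687, 21260 and 19125 reads, and its log2 ratios were -0.73, -0.73 and -0.87. It was thus lower by less than HSP90AA1, and the FPKM of HSP90AB1 over that of HSP90AA1 was 2.11 in Bulk against 3.64, 3.82 and 3.62. HSP90B1 (chromosome 12, 103930107 to 103953645), the Hsp90 of the ER, also called GRP94, had 13768, 17612, 17155 and 16746 reads. Its log2 ratios were 0.25 (0.21 to 0.28), 0.30 (0.27 to 0.34) and 0.28 (0.25 to 0.32), so Bulk was the lowest library for this gene and the highest for both cytosolic genes.

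The same contrast appeared among the main Hsp70 genes. HSPA8 (ENSG00000109971, chromosome 11, 123057489 to 123063230), the constitutive cytosolic Hsp70 and the one that strips clathrin from vesicles, had 28948 reads in Bulk against 17807, 16177 and 13481. Its log2 ratios were -0.81 (-0.84 to -0.78), -0.85 (-0.88 to -0.82) and -1.10 (-1.13 to -1.07). Bulk was the highest library, and Violet lay below the other two slow-cycling libraries. HSPA5 (ENSG00000044574, chromosome 9, 125234853 to 125241330) had 12983, 21774, 19635 and 18355 reads, and here Bulk was the lowest. Its log2 ratios were 0.64 (0.61 to 0.67), 0.58 (0.55 to 0.62) and 0.50 (0.47 to 0.53). In FPKM, HSPA8 stood at 1.80 times HSPA5 in Bulk and at 0.659, 0.664 and 0.592 times HSPA5 in Claret, eGFP and Violet, so the order of these 2 Hsp70 genes was inverted. HSPA9 (chromosome 5, 138553756 to 138575724), the mitochondrial Hsp70 that pulls proteins through the inner membrane, had 8258, 7392, 6941 and 6461 reads, with log2 ratios of -0.27, -0.26 and -0.35.

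**Figure D2:**
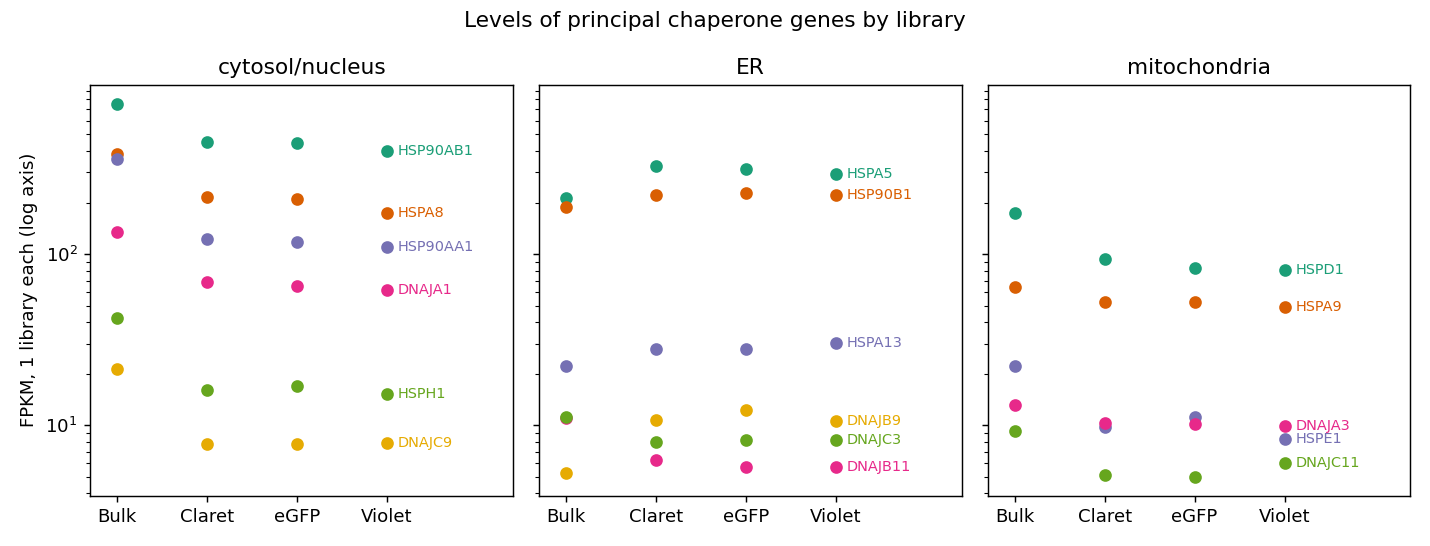
FPKM on a log axis (y) in each of the 4 libraries (x, 1 point per gene and library, no replicates) for 6 cytosolic, 6 ER and 5 mitochondrial members. HSPA8 lies at 384 in Bulk and at 173 to 216 in the slow-cycling libraries, and HSPA5 lies at 214 in Bulk and at 293 to 328 in the others.

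The stress-inducible Hsp70 pair HSPA1A and HSPA1B could only be read as a sum, because 73.6% of the 31-base words of HSPA1A and 74.4% of those of HSPA1B occur in other genes, mostly the other copy. Together they had 1437 reads in Bulk against 905, 951 and 808, with log2 ratios of -0.77 (-0.90 to -0.65), -0.61 (-0.73 to -0.49) and -0.83 (-0.96 to -0.70). Listed apart, HSPA1A had 137, 77, 85 and 99 reads and HSPA1B 1300, 828, 866 and 709. HSPA6, a strictly stress-induced Hsp70, had 36, 38, 36 and 50 reads, and its intervals included no difference in each library. It shares 56.7% of its 31-base words with other genes, chiefly the copy HSPA7, which had 2 to 8 reads. HSPA2, known from male germ cells, had 253, 165, 180 and 170 reads (log2 ratios -0.72, -0.50 and -0.57). HSPA12A, a distant relative of the family, had 155, 175, 187 and 159 reads.

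HSPA14, an Hsp70 of the ribosome-associated complex that meets new polypeptides, is listed under 2 overlapping identifiers. ENSG00000284024 had 486, 201, 205 and 218 reads and ENSG00000187522 had 322, 152, 130 and 129. Summed, the log2 ratios were -1.30, -1.28 and -1.21, and both identifiers alone were more than 2-fold lower in all 3 libraries. DNAJC2, the J protein of that complex, had 582, 380, 312 and 317 reads, with log2 ratios of -0.72, -0.91 and -0.87. Both partners of the complex were thus highest in Bulk. HSPA12B, known from endothelium, went the other way from few reads (13 in Bulk against 35, 43 and 23). At 0.825 CPM in Bulk it passed the filter only through the libraries where it is high. Its log2 ratios were 1.20 (0.37 to 2.36), 1.58 (0.79 to 2.73) and 0.74 (-0.22 to 1.93), so in Violet its interval included no difference.

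All 3 Hsp110 genes, nucleotide exchange factors of cytosolic Hsp70, were lower in each slow-cycling library. HSPH1 (ENSG00000120694, chromosome 13, 31134974 to 31162388) had 5509 reads in Bulk against 2284, 2259 and 2044. Bulk again stood apart, and the gene was 2.60-, 2.46- and 2.69-fold lower (log2 ratios -1.38, -1.30 and -1.43). Its rank by FPKM among the members went from the 12th in Bulk to the 18th in each slow-cycling library. HSPA4L had log2 ratios of -0.75, -0.76 and -0.83, and HSPA4 had -0.40, -0.46 and -0.55.

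Cytosolic J proteins were divided. DNAJA1 (ENSG00000086061, chromosome 9, 33025211 to 33039907), a farnesylated partner of HSPA8, had 5678, 3188, 2855 and 2711 reads, with log2 ratios of -0.94 (-1.00 to -0.88), -1.00 (-1.07 to -0.94) and -1.06 (-1.13 to -1.00). Its relative DNAJA2 had 2281, 2565, 2344 and 2243 reads, and its intervals included no difference in each library. DNAJB1, the heat-inducible J protein also called Hsp40, had 3392, 2862, 2861 and 2614 reads and moderate log2 ratios of -0.35, -0.26 and -0.37. DNAJB6, which keeps polyglutamine proteins from aggregating, had 3763, 4417, 4055 and 3818 reads and stayed within 0.02 to 0.12 of Bulk on the log2 scale.

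DNAJC9 (ENSG00000213551, chromosome 10, 73183362 to 73248862), which binds histones H3 and H4, had 1301 reads in Bulk against 524, 492 and 497. It was 2.67-, 2.66- and 2.61-fold lower (log2 ratios -1.42, -1.41 and -1.38), and 29.1% of its exon bases overlap other genes, while the use of strand in counting is not given in the sources used here. DNAJC7, which binds both Hsp70 and Hsp90, had log2 ratios of -0.71, -0.67 and -0.79. DNAJC8, a splicing-associated J protein, had -0.65, -0.71 and -0.80. DNAJC13, which acts on endosomes, had -0.58, -0.48 and -0.32, so Violet was nearest to Bulk for this gene. In the other direction, DNAJB2, a J protein with ubiquitin-binding motifs, had 582, 932, 945 and 913 reads and log2 ratios of 0.57, 0.68 and 0.65. DNAJC27, fused to a small GTPase domain, had 105, 147, 161 and 154 reads (0.37, 0.59 and 0.55). DNAJC12, which attends the aromatic amino acid hydroxylases, had only 6 reads in Bulk, against 45, 34 and 30, and the highest ratio of the 61 members tested in each library. At 0.381 CPM in Bulk it passed the filter only through the libraries where it is high. The intervals of its log2 ratio were 1.57 to 4.32, 1.22 to 4.03 and 1.04 to 3.88 around values of 2.46, 2.16 and 2.01.

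Of the remaining cytosolic J proteins, DNAJC5, which guards synaptic and secretory vesicles, had log2 ratios of -0.25, -0.22 and -0.20. DNAJB4 had -0.22, -0.32 and -0.34, DNAJB5 -0.25, -0.09 and -0.32, and DNAJC6, the auxilin partner of HSPA8 in clathrin uncoating, -0.45, -0.20 and -0.22. Intervals of DNAJC17, DNAJC21 and DNAJC24 included no difference in all 3 libraries. Over the 19 cytosolic J proteins tested, 13, 12 and 14 had a log2 ratio below 0, where 7355, 7394 and 7190 of all 14585 genes tested did.

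Of the small heat-shock proteins, which hold unfolded clients without ATP, 3 were tested. HSPB1, also called Hsp27, had 5525 reads in Bulk against 5120, 5148 and 4469, with log2 ratios of -0.22, -0.11 and -0.30, whose intervals lay below 0. HSPB8, which works with the exchange factor BAG3, had 97, 116, 106 and 92 reads, and its intervals included no difference. HSPB11, which despite its name is a subunit of the intraflagellar transport complex, had 387, 243, 204 and 227 reads (-0.77, -0.93 and -0.76). Among other members outside the 3 compartments, DNAJC4 had 293, 537, 638 and 558 reads (0.76, 1.10 and 0.93) and DNAJC22 had 200, 292, 237 and 260 (0.43, 0.23 and 0.38).

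ER J proteins did not follow HSPA5 as a block. DNAJB9 (ENSG00000128590, chromosome 7, 108569568 to 108574850), also called ERdj4, which guides misfolded proteins to degradation and holds the stress sensor IRE1 inactive, had 233 reads in Bulk against 517, 557 and 485. Its log2 ratios of 1.04 (0.82 to 1.27), 1.24 (1.02 to 1.47) and 1.05 (0.83 to 1.29) made it the only ER member past 2-fold in any of the 3 libraries. DNAJB11, also called ERdj3, which brings unfolded clients to HSPA5, had 977, 613, 524 and 526 reads and was lower (-0.78, -0.91 and -0.89). In FPKM, HSPA5 stood at 19.5 times DNAJB11 in Bulk and at 52.1, 55.0 and 51.2 times DNAJB11 in the slow-cycling libraries. Of the exon bases of DNAJB11, 23.2% overlap other genes. DNAJC3, a J protein of the ER lumen that is known as an inhibitor of the kinase PERK, was also lower (969, 760, 736 and 741 reads, log2 ratios -0.46, -0.41 and -0.39).

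DNAJC10, an ER reductase also called ERdj5 that breaks disulfides of misfolded proteins, had 3149, 4498, 4031 and 4148 reads (0.41, 0.34 and 0.40). HSPA13, an Hsp70-like protein of microsomes, had 1452, 1995, 1867 and 2025 reads (0.35, 0.35 and 0.48). DNAJC1, a membrane J protein that meets ribosomes, had 386, 558, 599 and 532 reads (0.42, 0.62 and 0.46), and DNAJC18 had 249, 399, 422 and 384 (0.57, 0.74 and 0.62). For these 4 genes Bulk was the lowest library. A pair of related membrane J proteins differed, with log2 ratios of -0.31, -0.34 and -0.20 for DNAJB12 and 0.16, 0.18 and 0.14 for DNAJB14. DNAJC14 had -0.76, -0.50 and -0.48, but 58.1% of its exon bases overlap other genes. DNAJC16 lay within 0.04 to 0.06 of Bulk, and DNAJC25 had 0.11, 0.45 and 0.19.

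The mitochondrial chaperonin pair was lower in the slow-cycling libraries. HSPD1 (ENSG00000144381, chromosome 2, 197486581 to 197516737), also called Hsp60, had 11493 reads in Bulk against 6733, 5646 and 5526. Its log2 ratios were -0.88 (-0.92 to -0.84), -1.04 (-1.08 to -0.99) and -1.06 (-1.10 to -1.01). HSPE1 (chromosome 2, 197499994 to 197503457), its lid, also called Hsp10, is read from the opposite strand beside HSPD1 and had 680, 326, 351 and 265 reads (-1.16, -0.96 and -1.35). The exons of both genes overlap, and HSPE1 also shares exons with the read-through gene HSPE1-MOB4, which was looked up after the values were seen and had 0 reads in all 4 libraries. The FPKM of HSPD1 over that of HSPE1 was 7.87 in Bulk against 9.62, 7.49 and 9.71. The measured ratio thus differed between libraries, while both genes moved in the same direction against Bulk. Of the exon bases of HSPE1, 23.9% overlap other genes, and how reads there were counted is not given in the sources used here. Whether the 0 of HSPE1-MOB4 and these ratios depend on it was not tested.

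The other mitochondrial members were nearer to Bulk. DNAJA3, the matrix J protein that serves HSPA9, had 1441, 1245, 1156 and 1131 reads (-0.32, -0.33 and -0.35). DNAJC11, associated with the complexes that shape the cristae, had 727, 442, 405 and 490 reads (-0.82, -0.85 and -0.57), with 27.9% of its exon bases overlapping another gene. DNAJC19 and DNAJC15, which belong to the import motor of the inner membrane, had log2 ratios of -0.01, -0.14 and -0.23 and of 0.21, -0.00 and 0.01. DNAJC30 and DNAJC28 had at most 143 and 21 reads in a library, and their intervals included no difference.

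Summed per length, the compartments held different shares in Bulk and in the slow-cycling libraries. The 47 cytosolic or nuclear members summed to 2272 FPKM in Bulk against 1343, 1340 and 1203. ER members summed to 503, 656, 654 and 624 FPKM, and mitochondrial members to 298, 187, 177 and 167. Bulk was the highest library for the first and the last group and the lowest for the ER. The share of the ER in the FPKM of all members was thus 16.3% in Bulk against 29.8%, 29.8% and 31.0%, and the ratio of cytosolic to ER chaperone RNA was 4.51, 2.05, 2.05 and 1.93.

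Few genes carried these sums. HSP90AB1, HSPA8 and HSP90AA1 together held 1500 FPKM of the cytosolic sum in Bulk, and 788, 772 and 683 in the slow-cycling libraries. Without them the other 44 cytosolic members summed to 772, 555, 568 and 519 FPKM. HSPA5 and HSP90B1 held 402 FPKM of the ER sum in Bulk and 549, 543 and 515 after sorting for slow division. The other 12 ER members summed to 101, 107, 111 and 110 FPKM, so the higher ER sum lay almost entirely in those 2 genes. Which genes were set apart here was chosen after their levels were seen.

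**Figure D3:**
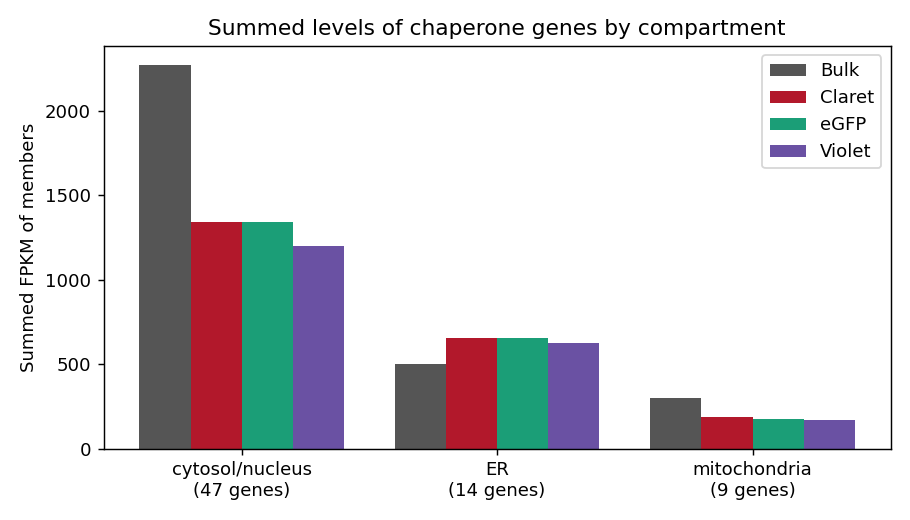
Summed FPKM (y axis, from 0) of the members of each compartment (x axis), 1 bar per library with no replicates. The cytosolic sum is 2272 in Bulk and 1203 to 1343 in the slow-cycling libraries, and the ER sum is 503 in Bulk and 624 to 656 in the others.

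By FPKM the order in Bulk was HSP90AB1 (756), HSPA8 (384), HSP90AA1 (359), HSPB1 (218), HSPA5 (214), HSP90B1 (189) and HSPD1 (174). In each slow-cycling library it was HSP90AB1, HSPA5, HSP90B1, HSPA8, HSPB1, HSP90AA1 and HSPD1. DNAJA1, HSPA9, DNAJB1 and HSPA4 followed at the 8th to the 11th rank in all 4 libraries. With no replicates, neighbours in these orders cannot be said to differ beyond the spread of samples.

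Genes that work with the members were counted from 7 lists, with every listed gene that passed the filter included. The lists themselves were made with earlier results of these data known. HSF1, the main transcription factor of heat-shock genes, had 2222 reads in Bulk against 2726, 2772 and 2487, with log2 ratios of 0.19, 0.31 and 0.16. It was thus slightly higher where most cytosolic members were lower. All 9 cofactors of Hsp70 were below Bulk in each library, with medians of -0.34, -0.43 and -0.46. Of these, 1, 2 and 1 (11.1%, 22.2% and 11.1%) were at least 2-fold lower. Among all genes tested 6.72%, 7.64% and 6.92% were, so a count of 1 in 9 is near the background. BAG2, an exchange factor that also holds back ubiquitination by CHIP, had 906, 364, 352 and 334 reads (-1.42, -1.37 and -1.43).

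Of 13 Hsp90 co-chaperones tested, 11, 11 and 12 were below Bulk, with medians of -0.60, -0.58 and -0.82, and 3, 1 and 3 (23.1%, 7.69% and 23.1%) were at least 2-fold lower, where 6.72%, 7.64% and 6.92% of all genes tested were, so the share in eGFP was near the background. STIP1, which passes clients from Hsp70 to Hsp90, had 7836, 4046, 3997 and 3435 reads (-1.06, -0.98 and -1.19). CHORDC1, another Hsp90 partner, had 1440, 615, 607 and 670 reads (-1.33, -1.26 and -1.10). The 8 subunits of the cytosolic chaperonin TRiC, which folds actin and tubulin, were below Bulk in all 3 libraries, with medians of -0.80, -0.86 and -0.96. Its subunit TCP1 had 6052, 2836, 2508 and 2454 reads (-1.20, -1.28 and -1.30). The 6 prefoldin subunits, which hand clients to TRiC, had medians of 0.05, -0.12 and -0.25.

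Partners in the organelles had medians nearer to Bulk than the Hsp70 cofactors, the Hsp90 co-chaperones and TRiC. The 8 ER partners of HSPA5 and HSP90B1 had medians of -0.03, -0.04 and -0.18, with 4, 4 and 6 below Bulk and 0 past 2-fold in either direction. These medians cover moves both ways. SDF2L1 (-0.88, -0.81 and -0.91), MANF, HYOU1 and CNPY3 were below Bulk in each library, and SIL1 (0.69, 0.48 and 0.47) and SEC63 above it. The 8 mitochondrial chaperones and proteases outside the members had medians of -0.09, -0.20 and -0.23, with 6, 6 and 7 below Bulk and 0 past 2-fold. Of all genes tested, 11.3%, 12.0% and 11.7% were at least 2-fold higher and 6.72%, 7.64% and 6.92% lower. With lists of 8 genes, a count of 0 is thus not far from these shares. The 4 genes of heat-shock factors and their regulator HSBP1 had medians of 0.10, 0.01 and -0.05.

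**Figure D4:**
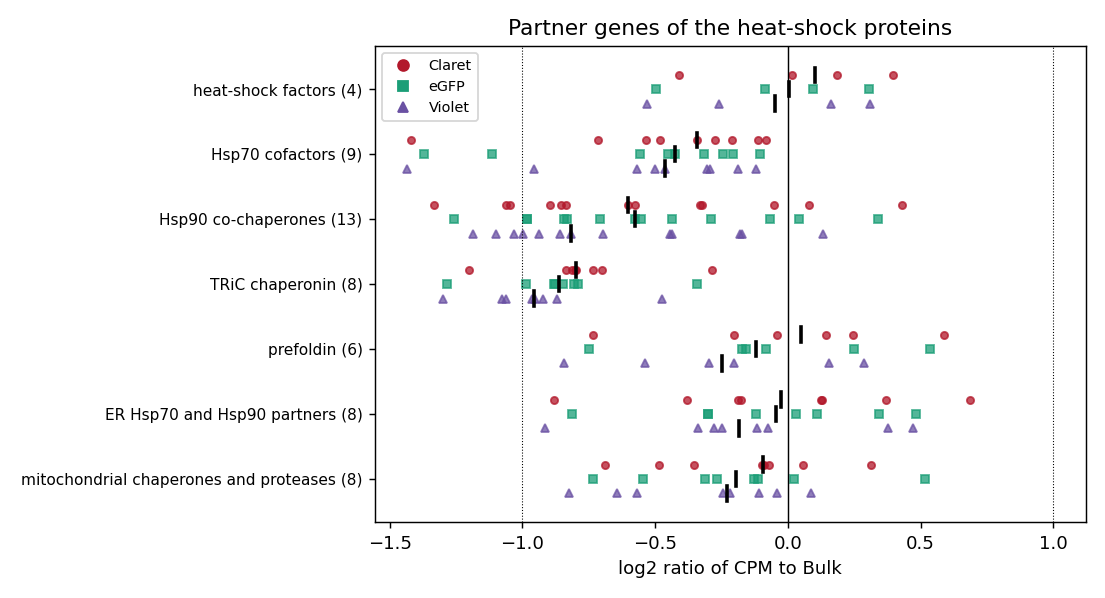
Log2 ratio of CPM to Bulk (x axis) of each partner gene tested in 7 lists (y axis, number of genes in brackets), in Claret (circles), eGFP (squares) and Violet (triangles), with black bars at the list medians and dotted lines at 2-fold. The TRiC subunits all lie left of 0, with medians of -0.80 to -0.96, and the ER partners spread on both sides of it.

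Among themselves the slow-cycling libraries differed little in the members tested. Of the 61 members tested, 0 reached 2-fold between any 2 of them. Of all genes tested, 0.501% were at least 2-fold higher and 0.644% lower in Claret than in eGFP. The shares were 0.329% and 0.727% for Claret to Violet and 0.377% and 0.912% for eGFP to Violet. A count of 0 in 61 is near those shares. At least 1.5-fold apart were 0 of these 61 between Claret and eGFP (5.20% of all genes tested), 1 between Claret and Violet (5.03%) and 2 between eGFP and Violet (5.79%). These were DNAJC28, with 19, 21 and 11 reads, whose intervals included no difference, and HSPA12B, with a log2 ratio of eGFP to Violet of 0.84 (0.13 to 1.69). The medians over the members tested were -0.02 for Claret to eGFP, 0.05 for Claret to Violet and 0.06 for eGFP to Violet.

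Small differences beyond counting error were present in well-counted members. The interval of the ratio of Claret to eGFP lay above 1 for 6 of the members tested and below 1 for 10 (12.7% and 11.8% of all genes tested). For Claret to Violet it lay above 1 for 13 members and below for 7 (14.3% and 13.7% of all genes), and for eGFP to Violet above for 15 and below for 4 (14.2% and 14.0%). HSPA8 was lower in Violet, with a log2 ratio of Claret to Violet of 0.29 (0.26 to 0.32) and of eGFP to Violet of 0.25 (0.22 to 0.28). HSP90AB1 was likewise lower in Violet, at 0.14 (0.11 to 0.17) against each of the other two. HSPD1 was higher in Claret, at 0.16 (0.11 to 0.21) to eGFP and 0.18 (0.12 to 0.23) to Violet. For DNAJC11 Violet was the highest of the 3, with log2 ratios of -0.26 for Claret to Violet and -0.29 for eGFP to Violet. Without replicates, differences of this size cannot be set against the spread between cultures.

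The 14 members below 1 CPM were HSPA1L, DNAJA4, DNAJB7, DNAJB8, DNAJB13, DNAJC5B, DNAJC5G, HSPB2, HSPB3, HSPB6, HSPB7, HSPB9 and the read-through genes DNAJC25-GNG10 and HSPB2-C11orf52. Of these, 5 had 0 reads in all 4 libraries (DNAJC5B, HSPB2, HSPB3 and both read-through genes). Exon bases overlap other genes for 100% of DNAJC25-GNG10, 99.2% of HSPB2-C11orf52 and 59.7% of HSPB2. How reads in overlapping exons were counted is not given, so a 0 in these genes need not mean absent RNA. HSPA1L, a germ-cell Hsp70, had 12, 23, 9 and 20 reads, DNAJA4 had 13, 5, 10 and 12, and DNAJB13, a J protein of sperm and cilia, had 3, 4, 22 and 9. Between slow-cycling libraries these 3 were past 2-fold in at least 1 pair, from few reads, and DNAJB13 also had a log2 ratio of eGFP to Bulk of 2.26 (1.13 to 5.25), above that of DNAJC12. Of the 9 small heat-shock protein genes, 6 were thus below this level, the read-through HSPB2-C11orf52 among them, against 0 of the 14 ER and 0 of the 9 mitochondrial members. Of the 47 cytosolic or nuclear members 35 reached the level, and of the 45 J proteins 38 did. Over all 19951 protein-coding genes, 12480 reached it.

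Several of the most abundant members have processed copies in the genome, and how reads matching more than 1 place were counted is not given in the sources used here. Of their 31-base words, 35.7% for HSP90AB1, 25.6% for HSP90AA1, 25.6% for HSPD1 and 21.4% for HSPA8 occur in other genes, mostly such copies. The 51 pseudogenes with names of this kind held 216 reads in Bulk and 113 to 140 in the others, 0.0814% to 0.107% of the reads of the members. Among the members tested, 13 had more than 20% shared words or overlapped exon bases. They are those 4 genes, HSPA1A, HSPA1B, HSPA6, HSPE1, DNAJB11, DNAJC9, DNAJC11, DNAJC14 and DNAJC17. Leaving them out gave the medians of -0.02, -0.05 and -0.20 named above.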

How the data were processed

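RNA of 4 sorted samples of a cell line was sequenced, 1 library per group, with summed counts of 15508179 to 16976909. The authors aligned with HISAT2 2.0.5 and counted with featureCounts 1.5.0-p3, per the submitters' processing notes; the genome build, strand and multimapping settings are not given in the sources used here. Start and end of all 75 members equal those of GENCODE 29 (GRCh38). The deposited count table holds unnormalized read counts per gene, per the file headers and the values. The deposited FPKM table was made by the authors from those counts and gene lengths, since FPKM times length over count is 1 constant per library. That constant implies library totals of 96.9%, 100.0%, 100.7% and 103.5% of the summed counts in Bulk, Claret, eGFP and Violet. FPKM compared between libraries, sums included, therefore carries a further factor per library.

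Counts were scaled by TMM (edgeR 4.0.16, R 4.3.3). Log2 ratios of CPM used a prior count of 2, over 14585 genes with a mean of at least 1 CPM. With 1 library per group no test across samples exists, so a fold of 2 (or 1.5) served as the mark, and 95% intervals of each read ratio (exact, Clopper-Pearson, scipy 1.17.1) give counting error only, since reads carry no molecular identifiers. A 0 allows up to 3 reads. The scripts were tested on simulated data. FPKM served for levels between genes.

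Groups follow the sample titles. Compartments and partner lists came from general knowledge, and the members and lists were chosen with earlier results of these data known. Full values are given for the Hsp90 genes, the main Hsp70, J protein and chaperonin genes, every member with a median log2 ratio to Bulk of at least 1 in size, list genes by the same size, and HSF1; other names were chosen after their values were seen. Alternatives were groups from the treatment field, DESeq2 1.42.0 size factors, summed counts alone, a prior count of 0.5, log2(FPKM + 1), no filter, a filter at 10 CPM, and calls that also needed an interval past 2-fold or an exact binomial test. Added after seeing the data were a GC correction in 20 bins, leaving out members with shared sequence, and ER lumen members alone.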

Additional observations from a re-analysis of the deposited data

How the results depend on the processing

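No paired analysis was possible because each group holds 1 library, and for the same reason no library could be left out. With groups from the treatment field, whose "Bulk" is the library titled Violet, the medians over all members became 0.32 in Claret, 0.0511 in eGFP and 0.0609 in Violet. In the same order the cytosolic medians became 0.34, 0.0753 and 0.0635, the ER medians -0.23, -0.0382 and 0.0174, and the mitochondrial medians 0.35, 0.18 and 0.0896. Members at least 2-fold higher became 9, 0 and 0, and those at least 2-fold lower 2, 0 and 0. The cycling markers MKI67 (6778 reads, against 995, 689 and 915) and TOP2A were highest in the library titled Bulk.

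With a filter at 10 CPM the cytosolic medians were -0.58, -0.48 and -0.55, the ER partners had a median of -0.18 in Claret and the Hsp90 co-chaperones one of -0.72; fewer genes are tested there. ER lumen members alone, chosen after seeing the data, had medians of 0.38 in Claret and 0.43 in Violet. Without the members that share sequence or exons the median of all members was -0.0176, -0.0502 and -0.1971. The members at least 2-fold higher (DNAJC12 and HSPA12B among them have few reads) were 1, 2 and 1 when the interval had to lie past 2-fold, 0, 1 and 0 with log2(FPKM + 1), 1, 2 and 1 at 10 CPM, and 4 in Violet with no filter. The cause was not tested. Over all values for comparisons, 366 kept their direction and size by the criteria used, 25 moved and 11 were reversed. For single genes, where only alternatives that keep the titles were run, 33 values moved beyond counting error, 357 did not and 0 turned sign. The settings with no filter and with a filter at 10 CPM only choose genes and cannot change the ratio of a single gene. Part of the 357 was therefore fixed in advance.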
